A study of Mus musculus with 5 samples.

Results

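The genes described are 8 members of TNF and IL-6 family signalling, chosen by name from a table of 16498 genes: the ligands Tnf, Osm and Il6, the TNF receptors Tnfrsf1a and Tnfrsf1b, and the receptor chains Il6ra, Il6st and Osmr. They were followed across the cell types of 5 libraries made from single cells of the mouse aortic arch, and all cells of a library are called the whole arch. Both groups carried Apoe-/-, the deletion that makes mice prone to atherosclerosis, and by the paper's methods the aortas came from mice fed normal chow for 28 weeks. There were 2 libraries of Oasl1+/+Apoe-/- mice, called Apoe-/- here, and 3 libraries labelled Oasl1-/-Apoe-/-.

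Tumour necrosis factor is a trimeric cytokine made mainly by myeloid cells. It signals through TNFR1, encoded by Tnfrsf1a and found on most cells, and through TNFR2, encoded by Tnfrsf1b and found mostly on leukocytes and endothelium. Interleukin-6 binds its own receptor chain, encoded by Il6ra, and then the shared signalling chain gp130, encoded by Il6st, and a soluble form of the receptor can serve cells that carry gp130 alone. Oncostatin M, encoded by Osm, also uses gp130, paired with the chain encoded by Osmr. In the artery wall these cytokines are known for acting on endothelial cells, fibroblasts and smooth muscle cells.

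The libraries held between 3212 and 4338 cells and between 16959976 and 19813039 UMIs (unique molecular identifiers, each counting 1 captured transcript), with a median of 4495 to 5186.5 UMIs per cell. Levels are given as CP10K, UMIs per 10000 UMIs of a cell, averaged over the cells of a library. The median mitochondrial share of a cell was 4.91% and 5.004% in the Apoe-/- libraries and 4.03%, 3.95% and 3.90% in the others, without overlap, and its part in the differences below was not tested. Of the 18094 distinct cell barcodes, 165 occurred in 2 or more libraries. Of the targeted gene, Oasl1, 27 and 16 UMIs were counted in the 2 Apoe-/- libraries, against 299, 257 and 315 where the label gives Oasl1-/-Apoe-/-, so it was higher, not lower, where it is labelled as deleted (log2 difference 1.88, limma adjusted p 1.56e-07). The allele lacks the promoter region and exon 2. Reads from the 3′ end lie outside that part, so they do not show directly whether it is missing. A higher Oasl1 count is at odds with the label, and its cause was not tested. Every direction below is therefore given for libraries by their label. A gate on marker genes gave 17344 of 18260 cells a type. Shares of several gated types did not overlap between the groups: the share of smooth muscle cells was 69.4% ± 1.17 in Apoe-/- libraries (SD, n = 2) and 48.5% ± 0.192 in libraries labelled Oasl1-/-Apoe-/- (SD, n = 3), that of macrophages 10.4% ± 0.471 and 22.97% ± 0.840, and that of fibroblasts 2.63% ± 0.0644 and 7.05% ± 0.475 (exact permutation p 0.1 for each, two-sided, the smallest that 2 against 3 libraries allow). In the gated macrophages the summed macrophage markers had a median of 229 CP10K and the fibroblast and endothelial markers a median of 0, and in the gated endothelial cells the endothelial markers had a median of 67.5 CP10K and the macrophage and fibroblast markers a median of 0. Gated smooth muscle cells had a median of 477 CP10K of their own markers and of 4.15 CP10K of the fibroblast markers. The cells were gated by marker lists, so these medians follow in part from the gate and are no separate check of it.

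The promoters of Il6 and Tnf are shown because Il6 had the largest whole-arch difference among the members and Tnf is the ligand found in other cells. The window of Il6 runs from 250 bases before to 50 bases after the start site, on the plus strand, at chr5:30012864-30013163 of GRCm38.p6 (RefSeq), and the capitals mark the 1 match to the NF-kB motif, searched on both strands. The window of Tnf lies on the minus strand at chr17:35201958-35202257 and held no match to the NF-kB, AP-1 or STAT3 motif.

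Il6: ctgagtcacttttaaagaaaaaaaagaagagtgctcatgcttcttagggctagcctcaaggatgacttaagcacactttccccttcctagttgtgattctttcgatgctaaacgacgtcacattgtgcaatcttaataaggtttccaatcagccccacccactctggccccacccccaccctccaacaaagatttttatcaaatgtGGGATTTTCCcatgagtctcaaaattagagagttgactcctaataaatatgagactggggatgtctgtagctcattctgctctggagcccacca
Tnf: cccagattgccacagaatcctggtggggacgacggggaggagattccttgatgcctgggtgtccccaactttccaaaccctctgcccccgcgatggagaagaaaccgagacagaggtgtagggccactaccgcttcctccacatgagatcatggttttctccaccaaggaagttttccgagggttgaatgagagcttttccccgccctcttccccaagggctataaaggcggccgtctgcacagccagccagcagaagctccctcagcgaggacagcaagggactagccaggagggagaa

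The NF-kB match in Il6 starts 44 bases before the start site. The motif was found in 8.46% of the 32851 RefSeq promoter windows of the same length, and the window of Il6 was the only one with a match among the 7 members that have an entry. The same window held 1 match to the AP-1 motif (TGAGTCA or TGACTCA), which 5.20% of windows hold. The STAT3 motif, TTCNNNGAA, which 8.30% of windows hold, had 1 match each in the windows of Tnfrsf1a and Tnfrsf1b. These matches are descriptions of letters and not of binding.

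Tnf (ENSMUSG00000024401, chromosome 17, 35199381 to 35202007, minus strand) came from myeloid cells. Its level in macrophages was 2.76 and 2.84 CP10K in the Apoe-/- libraries and 2.45, 2.76 and 2.60 CP10K in the libraries labelled Oasl1-/-Apoe-/-. The groups overlapped. Neutrophils had the highest mean, 10.1 ± 6.82 CP10K (SD, n = 5), and monocytes 3.20 ± 1.28 CP10K, but neutrophils lay above monocytes in 4 of 5 libraries and monocytes above macrophages in 4 of 5, so neither order exceeded the spread between libraries. Macrophages lay above dendritic cells in 5 of 5. Macrophages, with 3137 cells against 144 monocytes and 91 neutrophils, held 77.8% ± 5.30 (SD, n = 5) of all Tnf UMIs, against 3.15% in monocytes and 1.92% in neutrophils. A Tnf UMI was found in 49.2% of the macrophages (Wilson 95% interval 47.4 to 50.9, 3137 cells, median 5373 UMIs per cell), against 0.924% of smooth muscle cells (0.759 to 1.12, 10610 cells, median 4951 UMIs per cell), taken here as the background. Among macrophages with a Tnf UMI the median was 2 UMIs and the highest 51, and the 155 cells with the most held 34.6% of the UMIs.

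Osm (ENSMUSG00000058755, chromosome 11, 4236420 to 4241026, plus strand) followed the same order of cells. Neutrophils had 11.96 ± 3.88 CP10K, monocytes 6.45 ± 1.98 and macrophages 2.05 ± 0.175 (SD, n = 5), in that order in 5 of 5 libraries, and macrophages lay above dendritic cells in 4 of 5. Macrophages held 70.2% ± 3.58 of the UMIs and monocytes 6.91% ± 1.94. An Osm UMI was found in 43.5% of macrophages (41.8 to 45.3) against 0.735% of smooth muscle cells (0.589 to 0.916). Of the macrophages with a Tnf UMI, 56.4% also had an Osm UMI, against 31.1% of those without one. Depth was not matched between these cells.

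Il6 (ENSMUSG00000025746, chromosome 5, 30013114 to 30019981, plus strand) came mainly from stromal cells instead. Fibroblasts had 0.835 and 1.77 CP10K in the Apoe-/- libraries and 0.968, 2.40 and 1.78 CP10K in those labelled Oasl1-/-Apoe-/-. The groups overlapped widely. Fibroblasts lay above monocytes, the next type by mean at 0.466 ± 0.434 CP10K, in 5 of 5 libraries. Monocytes lay above endothelial cells in only 3 of 5, and no library had more than 2 monocytes with an Il6 UMI. Fibroblasts held 48.8% ± 9.49 of the Il6 UMIs and smooth muscle cells 29.6% ± 8.28 (SD, n = 5). An Il6 UMI was seen in 18.1% of fibroblasts (15.7 to 20.7, 914 cells, median 5705 UMIs per cell), in 1.12% of smooth muscle cells (0.938 to 1.34) and in 1.41% of endothelial cells (0.913 to 2.16), against 0 of 673 NK/T cells (median 1764 UMIs per cell), which allows a share of up to 0.446% (3 counts of the total). Output was concentrated in few cells: 17 of the 165 Il6-positive fibroblasts held 52.5% of fibroblast Il6 UMIs, and 1 cell held 121. In 1 macrophage of a library labelled Oasl1-/-Apoe-/- there were 88 of the 111 Il6 UMIs of all macrophages. Intervals and limits on shares cover counting error only.

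**Figure D1:**
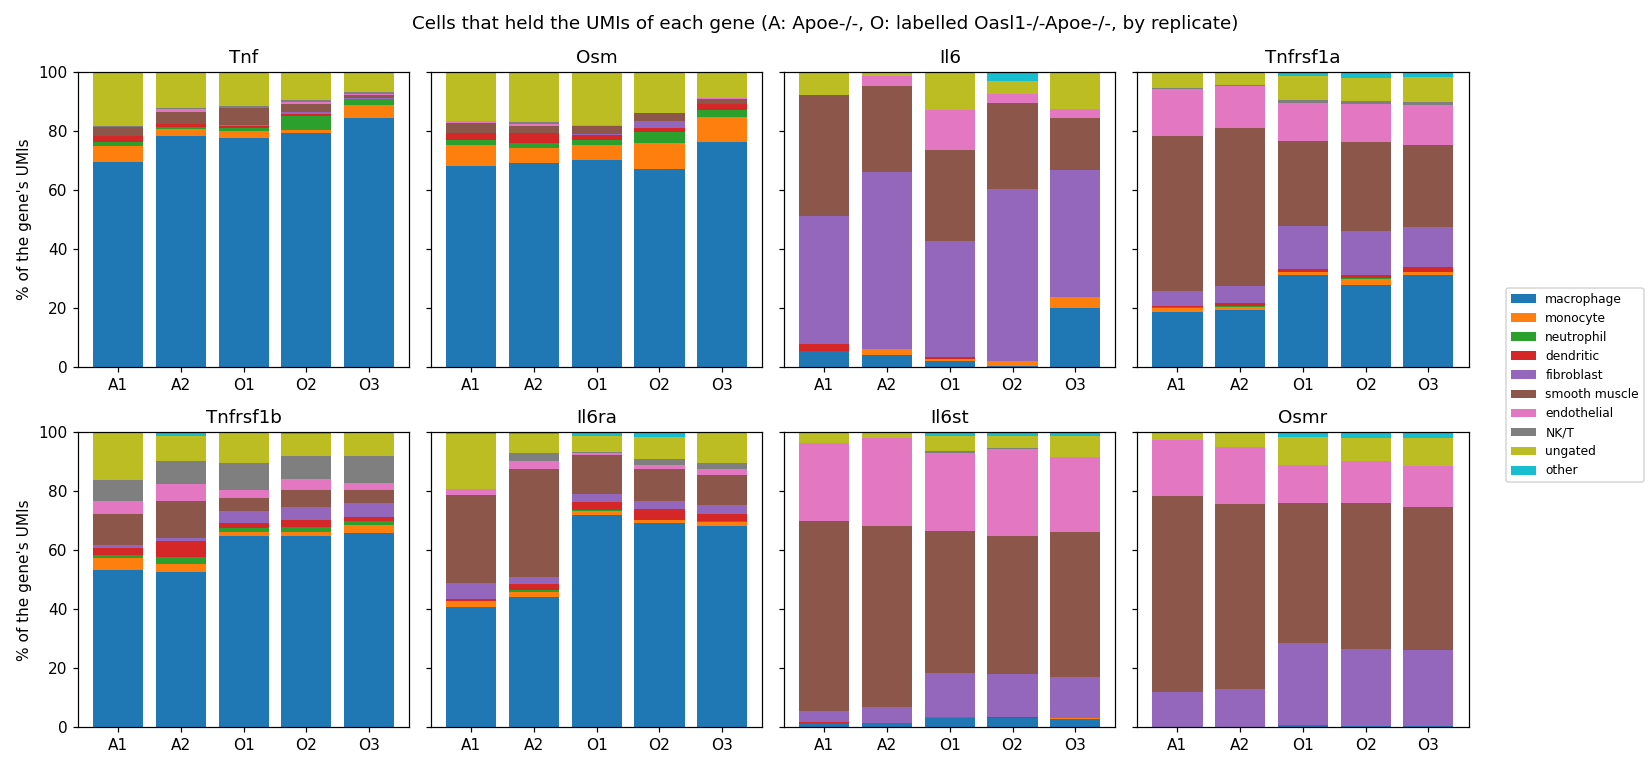
Percent of the UMIs of each gene (y axis) held by each gated cell type in each library (x axis; A1 and A2 are Apoe-/- replicates, O1 to O3 are replicates labelled Oasl1-/-Apoe-/-). Macrophages hold most Tnf and Osm UMIs in all 5 libraries, and fibroblasts and smooth muscle cells most Il6 UMIs.

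The receptors divided between the cell types. Tnfrsf1a (ENSMUSG00000030341, chromosome 6, 125349362 to 125362484, plus strand) was broad. Its mean was 2.85 ± 1.07 CP10K in neutrophils, 2.30 ± 0.304 in endothelial cells, 1.72 ± 0.146 in fibroblasts, 1.22 ± 0.0876 in macrophages and 0.610 ± 0.0395 in smooth muscle cells (SD, n = 5), and it was listed at 0 in B cells. Neutrophils, endothelial cells and monocytes did not hold their order in all libraries, while fibroblasts lay above macrophages in 5 of 5. Tnfrsf1b (ENSMUSG00000028599, chromosome 4, 145213463 to 145246870, minus strand) was highest in neutrophils at 4.98 ± 2.44 CP10K, then in NK/T cells at 2.14 ± 0.308, each above the next type in 5 of 5 libraries. Macrophages at 1.095 ± 0.0886 and dendritic cells at 1.08 ± 0.334 did not differ beyond their spread, and smooth muscle cells had 0.0348 ± 0.00444. Of the macrophages, 22.4% had UMIs of both TNF receptors, against 4.57% of endothelial cells.

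Macrophages held 52.97% ± 0.546 of the Tnfrsf1b UMIs in Apoe-/- libraries (SD, n = 2) and 65.2% ± 0.628 in the others (SD, n = 3). Of the Tnfrsf1a UMIs, smooth muscle cells held 53.2% ± 0.686 and macrophages 18.9% ± 0.480 in Apoe-/- libraries, against 29.0% ± 1.11 and 30.1% ± 1.85 in those labelled Oasl1-/-Apoe-/-. Shares of UMIs, here and for Il6ra below, also depend on how many cells each type had. Macrophages were 10.4% of the cells in Apoe-/- libraries and 22.97% in the others, and smooth muscle cells 69.4% and 48.5%.

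The chains of the IL-6 receptor had their highest levels in different cell types. Il6ra (ENSMUSG00000027947, chromosome 3, 89864059 to 89913196, minus strand) had a level of 0.361 ± 0.375 CP10K in neutrophils, 0.350 ± 0.0773 in macrophages, 0.311 ± 0.101 in monocytes and 0.249 ± 0.120 in cells of the dendritic gate, and their order did not hold in all libraries. The neutrophil value rests on at most 1 Il6ra UMI in each library, at a median of 972 UMIs per cell. Endothelial cells had 0.0273 ± 0.0214 CP10K of Il6ra. Il6st (ENSMUSG00000021756, chromosome 13, 112464070 to 112510086, plus strand) ran the other way, at 3.85 ± 0.337 CP10K in endothelial cells, 1.41 ± 0.0852 in fibroblasts and 0.795 ± 0.0508 in smooth muscle cells, each above the next in 5 of 5 libraries, and at 0.0875 ± 0.0127 in macrophages. Macrophages held 42.5% ± 2.57 of the Il6ra UMIs in Apoe-/- libraries (SD, n = 2) and 69.7% ± 1.998 in those labelled Oasl1-/-Apoe-/- (SD, n = 3). Smooth muscle cells held 54.0% ± 8.29 and endothelial cells 27.6% ± 1.95 of the Il6st UMIs (SD, n = 5). Of the Il6ra UMIs, smooth muscle cells held 33.2% ± 5.02 in Apoe-/- libraries (SD, n = 2) and 11.3% ± 1.59 in the others (SD, n = 3), at a level of 0.0334 ± 0.00654 CP10K (SD, n = 5). Both chains were seen in 77 of 10610 smooth muscle cells (0.726%), 46 of 3137 macrophages (1.47%), 21 of 914 fibroblasts (2.30%) and 12 of 1421 endothelial cells (0.844%). Over the 9 described types the log2 levels of Il6ra and Il6st had a Pearson correlation of -0.84, given as a description over types that share libraries.

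Osmr (ENSMUSG00000022146, chromosome 15, 6813577 to 6874969, minus strand) was found where Il6st was. Fibroblasts had 0.937 ± 0.124 CP10K, endothelial cells 0.660 ± 0.0490 and smooth muscle cells 0.233 ± 0.0387 (SD, n = 5), in that order in 5 of 5 libraries. It was listed at 0 in neutrophils, monocytes, dendritic, NK/T and B cells, and at 10 UMIs in 3137 macrophages. Osmr and Il6st were detected together in 20.8% of fibroblasts, 15.5% of endothelial cells and 4.31% of smooth muscle cells. Osm UMIs lay mainly in leukocytes and Osmr UMIs mainly in stromal and endothelial cells.

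**Figure D2:**
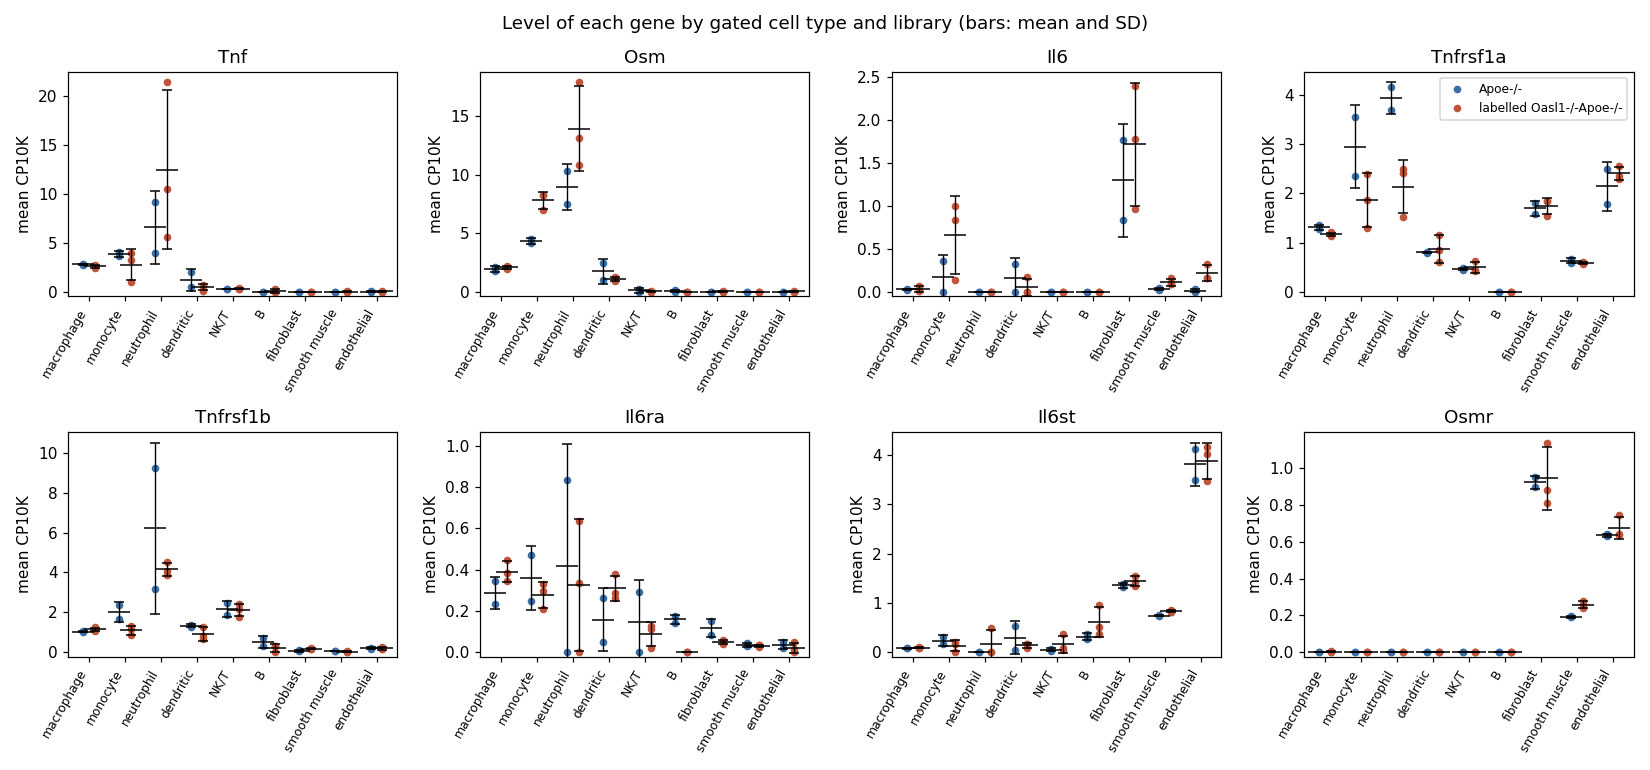
Mean CP10K (y axis, linear, a scale of its own for each gene) of the 8 genes in 9 gated cell types (x axis), each point 1 library, with mean and SD of the 2 Apoe-/- and the 3 labelled Oasl1-/-Apoe-/- libraries. Tnf, Osm, Tnfrsf1b and Il6ra lie mainly in leukocytes, and Il6st and Osmr mainly in fibroblasts, endothelial and smooth muscle cells. Il6 is highest in fibroblasts.

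The genes whose levels over the 9 types were most like each member's, by Pearson correlation of log2 levels, were Lilr4b, Oasl1 and Adam8 for Tnf (0.99, 0.98 and 0.98), Itgam, Gpr35 and Taldo1 for Osm (each 0.99), Pnp2, Glis3 and Sphk1 for Il6 (0.97, 0.95 and 0.93), Ctnnbip1, Timm10b and Tmem185b for Tnfrsf1a (0.96, 0.96 and 0.95), Mapkapk3, Ccl4 and Chaf1b for Tnfrsf1b (0.97, 0.97 and 0.96), Edem1, Efhd2 and Adam8 for Il6ra (0.98, 0.96 and 0.96), Ptk2, Fbxl7 and Crip2 for Il6st (0.98, 0.97 and 0.96) and Nectin3, Plac9b and Hebp2 for Osmr (0.999, 0.999 and 0.998). Itgam, which heads the list for Osm, encodes an integrin chain of myeloid cells.

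In the whole arch, 5 of the 8 genes passed the threshold, all higher in the libraries labelled Oasl1-/-Apoe-/-, and none passed as lower. Tnf was at 0.553 and 0.414 CP10K in the Apoe-/- libraries and at 0.801, 0.915 and 0.786 CP10K in those labelled Oasl1-/-Apoe-/-, a log2 difference of 0.74 ± 0.10 (SE; limma adjusted p 0.000249). Osm rose from 0.397 and 0.331 CP10K to 0.832, 0.857 and 0.740 CP10K, a log2 difference of 1.06 ± 0.08 (limma adjusted p 3.95e-06). Il6 had 0.0441 and 0.0838 CP10K against 0.153, 0.302 and 0.235 CP10K, a log2 difference of 1.28 ± 0.20 (limma adjusted p 0.000595). None of these groups overlapped. How many of all genes separated the groups as fully was not counted, and Osmr and Il6st, which did not pass, also did so.

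Among the receptors, Tnfrsf1b was at 0.291 CP10K in both Apoe-/- libraries and at 0.499, 0.505 and 0.495 CP10K in the others, a log2 difference of 0.69 ± 0.06 (limma adjusted p 5.33e-06). Il6ra had 0.0739 and 0.0963 CP10K against 0.117, 0.140 and 0.147 CP10K, a log2 difference of 0.45 ± 0.10 (limma adjusted p 0.00435). Tnfrsf1a, Il6st and Osmr did not pass the threshold, with log2 differences of 0.13 ± 0.07, -0.11 ± 0.06 and 0.18 ± 0.07 (limma adjusted p 0.146, 0.170 and 0.0703). Osmr was at 0.222 and 0.225 CP10K against 0.267, 0.278 and 0.237 CP10K, higher without overlap. Il6st was at 0.893 and 0.949 CP10K against 0.885, 0.870 and 0.797 CP10K, lower without overlap. Tnfrsf1a and Osmr passed on summed UMIs (limma adjusted p 0.0353 and 0.0121), Tnfrsf1a also without Apoe-/- replicate 1 (0.23, limma adjusted p 0.00564) and Osmr without replicate 3 labelled Oasl1-/-Apoe-/- (0.24, limma adjusted p 0.0363). The share of all 9836 tested genes that passed was 41.1%, counting both directions, and that share stands beside the 5 of 8 members.

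**Figure D3:**
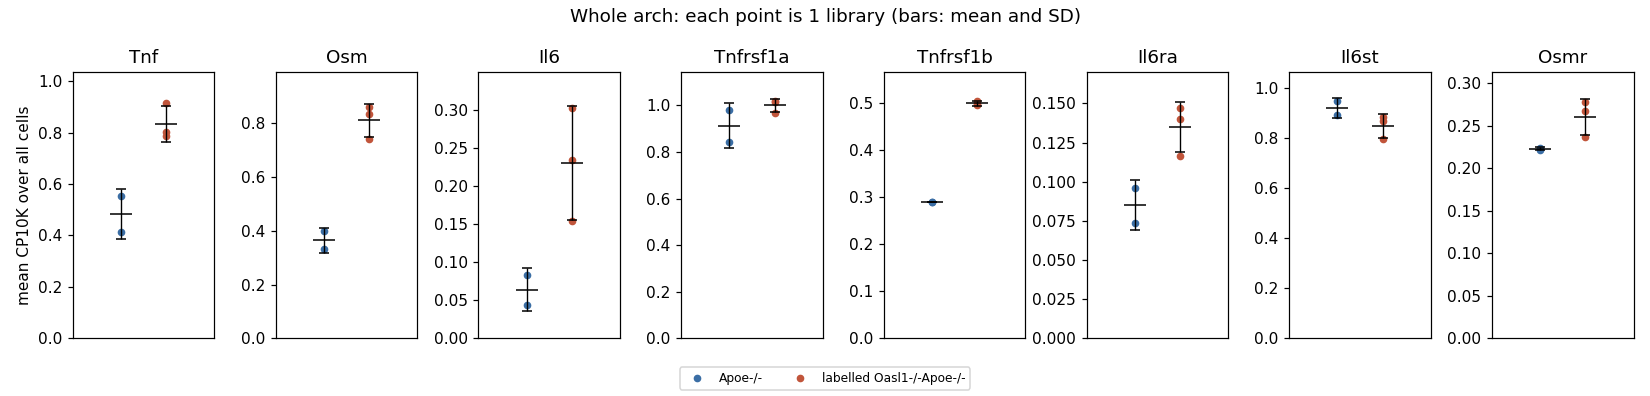
Mean CP10K over all cells of a library (y axis, from 0) for each of the 8 genes, each point 1 library, with mean and SD. For Tnf, Osm, Il6, Tnfrsf1b, Il6ra and Osmr every library labelled Oasl1-/-Apoe-/- lies above both Apoe-/- libraries. For Il6st every such library lies below both. Osmr and Il6st did not pass the threshold.

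The cells of the libraries differed in type, and a whole-arch level mixes the share of a type with the level in it. When every library was given the same shares of gated types, only Il6 passed, at 0.77 ± 0.19 on the log2 scale (limma adjusted p 0.0266), where 11.5% of 9813 genes did. Tnf then had a log2 difference of -0.14 ± 0.09 (limma adjusted p 0.360), Osm of 0.23 ± 0.07 (0.0639), Osmr of 0.23 ± 0.07 (0.0658), Tnfrsf1b of -0.052 ± 0.059 (0.630) and Il6ra of -0.0025 ± 0.10 (0.9902).

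Within macrophages none of the 6 members tested passed the threshold, where 16.1% of 7899 genes did. Tnf had a log2 difference of -0.11 ± 0.08 and Osm of 0.13 ± 0.09 (limma adjusted p 0.395 and 0.386). Il6ra had 0.233 and 0.343 CP10K against 0.344, 0.445 and 0.383 CP10K, a log2 difference of 0.40 ± 0.16 (limma adjusted p 0.116), and Tnfrsf1b 0.13 ± 0.10, Tnfrsf1a -0.16 ± 0.09 and Il6st 0.18 ± 0.18 (0.402, 0.255 and 0.562). Osm passed without Apoe-/- replicate 1, at 0.24 (limma adjusted p 0.0446), and Il6ra without Apoe-/- replicate 2, with 0.63 (limma adjusted p 0.00442). A Gpnmb UMI, which marks foamy macrophages, was present in 64.0% ± 0.427 (SD, n = 2) of macrophages in Apoe-/- libraries and in 40.7% ± 1.52 (SD, n = 3) of those labelled Oasl1-/-Apoe-/-. Tnf was higher in macrophages without a Gpnmb UMI than in those with one in each of the 5 libraries, at 4.21 against 1.93, 3.40 against 2.53, 3.16 against 1.48, 3.37 against 1.83 and 3.18 against 1.75 CP10K. In macrophages without a Gpnmb UMI, where 5.74% of 7932 genes passed and no member did, Tnf had a log2 difference of -0.22 ± 0.11 and Osm of -0.13 ± 0.14 (limma adjusted p 0.274 and 0.641).

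In endothelial cells Il6 passed, where 3.1% of 9455 genes did. It was at 0 and 0.0320 CP10K in the Apoe-/- libraries and at 0.322, 0.158 and 0.167 CP10K in those labelled Oasl1-/-Apoe-/-, a log2 difference of 1.9998 ± 0.34 (limma adjusted p 5.87e-05). Between the groups there was no overlap, though how many of all genes separated as fully was not counted. The call held without each library in turn. Il6 met the filter of 0.05 CP10K only through the libraries labelled Oasl1-/-Apoe-/-, and with no filter its limma adjusted p was 0.0213. It rests on few molecules, 5 UMIs in 749 cells against 71 UMIs in 672 cells, and 2 of the 20 positive cells held 44.7% of them. The positive cells had a median of 54.2 CP10K of endothelial markers and of 0 CP10K of fibroblast and macrophage markers. Gated endothelial cells without an Il6 UMI had medians of 67.6, 0 and 0 CP10K, and the gate itself used marker lists. Fibroblast genes moved with the group in the gated endothelial cells too: a Lum UMI was in 3.26% and 4.99% of them in Apoe-/- libraries and in 11.3%, 8.30% and 11.3% in the others, and a Dcn UMI in 32.6% and 35.7% against 41.4%, 40.2% and 38.7%. Of the 20 positive cells, 6 had a Dcn UMI and 1 a Lum UMI, and the part of these genes in the Il6 difference was not tested. In endothelial cells named from graph clusters, where 4.14% of genes passed, the difference was 1.98 (limma adjusted p 1.66e-05). The TNF receptors, Il6st and Osmr in the same cells had log2 differences from -0.01 to 0.18, with adjusted p of 0.664 and above by limma.

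In smooth muscle cells, the contractile cells of the media, Il6 and Osmr passed, where 7.64% of 9088 genes did. Il6 was at 0.0222 and 0.0417 CP10K against 0.0881, 0.162 and 0.0954 CP10K, a log2 difference of 0.99 ± 0.16 (limma adjusted p 0.00131). Both Apoe-/- libraries lay under the filter of 0.05 CP10K, so Il6 was tested only through the other group, and with no filter its limma adjusted p was 0.0498. Osmr was at 0.196 and 0.190 CP10K against 0.260, 0.277 and 0.241 CP10K, a log2 difference of 0.35 ± 0.08 (limma adjusted p 0.0172), and no longer passed without Apoe-/- replicate 2 (0.33, adjusted p 0.0744), without replicate 1 labelled Oasl1-/-Apoe-/- (0.35, 0.0515) or without replicate 2 so labelled (0.31, 0.0704). In smooth muscle cells named from graph clusters, where 7.46% of genes passed, Osmr was at 0.26 (limma adjusted p 0.0765) and Il6 lay below the filter. Il6st had 0.15 ± 0.06 and Tnfrsf1a -0.09 ± 0.07 (limma adjusted p 0.137 and 0.480).

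Fibroblast markers moved with these values. A UMI of Dcn or Lum, genes of matrix proteoglycans that fibroblasts express, was present in 7.69% ± 1.17 (SD, n = 2) of gated smooth muscle cells in Apoe-/- libraries and in 18.1% ± 0.619 (SD, n = 3) in those labelled Oasl1-/-Apoe-/-. Smooth muscle cells with such a UMI had 0.175 and 0.419 against 0.437, 0.558 and 0.361 CP10K of Il6, with overlap, and those without had 0.00799 and 0.0139 against 0.0141, 0.0734 and 0.0344 CP10K, too low to be tested. Among smooth muscle cells without a Dcn or Lum UMI, a subset chosen after seeing the data, Osmr had a log2 difference of 0.12 ± 0.09 (limma adjusted p 0.502; 5.81% of genes passed). Smooth muscle cells with an Il6 UMI had a median of 12.6 CP10K of fibroblast markers, against 4.12 in those without. Whether these cells account for the difference was not tested.

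**Figure D4:**
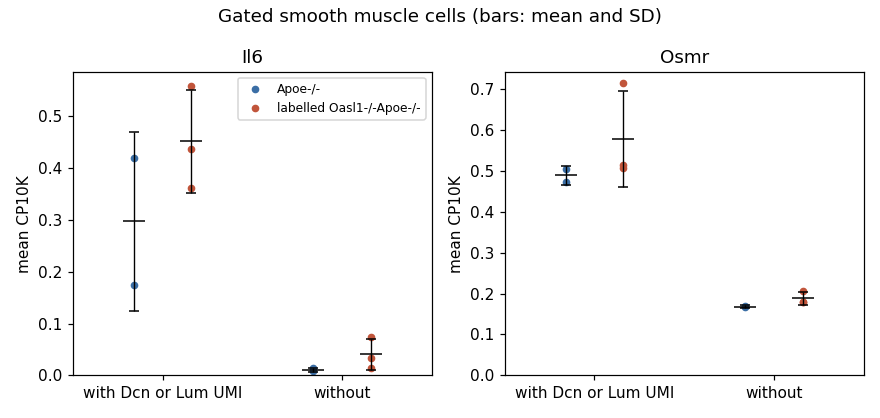
Mean CP10K (y axis, from 0) of Il6 and Osmr in gated smooth muscle cells with and without a Dcn or Lum UMI, each point 1 library, with mean and SD. Both genes are higher in cells with such a UMI, in each of the 5 libraries.

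In fibroblasts none of the 6 members tested passed, where 3.64% of 9441 genes did. Il6 had a log2 difference of 0.39 ± 0.32 (limma adjusted p 0.587), Tnfrsf1b 0.95 ± 0.34 (0.170) and Il6ra -0.72 ± 0.34 (0.315). Tnfrsf1a, Il6st and Osmr lay between 0.02 and 0.08. Tnfrsf1b passed without Apoe-/- replicate 1, with 1.44 (limma adjusted p 0.0255). In NK/T and dendritic cells, where 1.72% and 0.201% of genes passed, none of the 6 and 7 members tested did. The share of fibroblasts with an Il6 UMI was 12.6% against 19.6%, a difference of 7.02 percentage points (exact permutation p 0.3, two-sided), and 5.58% against 10.2% with each cell thinned to 1000 UMIs (exact permutation p 0.2). The share of macrophages with a Tnf UMI was 47.5% against 49.8% (exact permutation p 0.4) and 21.8% against 20.5% when thinned, and with an Osm UMI 40.6% against 44.7% (exact permutation p 0.1) and 14.1% against 16.5% when thinned.

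The effects were also set against each other between types within each library. No member passed the threshold in macrophages against smooth muscle cells, endothelial cells or fibroblasts, or in fibroblasts against smooth muscle cells, where 3.54%, 0.0422%, 0.0141% and 0.0354% of genes did. At an unadjusted p under 0.05 there were 2 members, Il6ra and Tnfrsf1b in macrophages against fibroblasts (limma adjusted p 0.214 and 0.290). In that comparison 1133 of all 7087 genes had an unadjusted limma p under 0.05. The Il6 effect was set against another type only between fibroblasts and smooth muscle cells, where it did not pass (limma adjusted p 0.460), so no difference between types in the Il6 effect was shown.

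**Figure D5:**
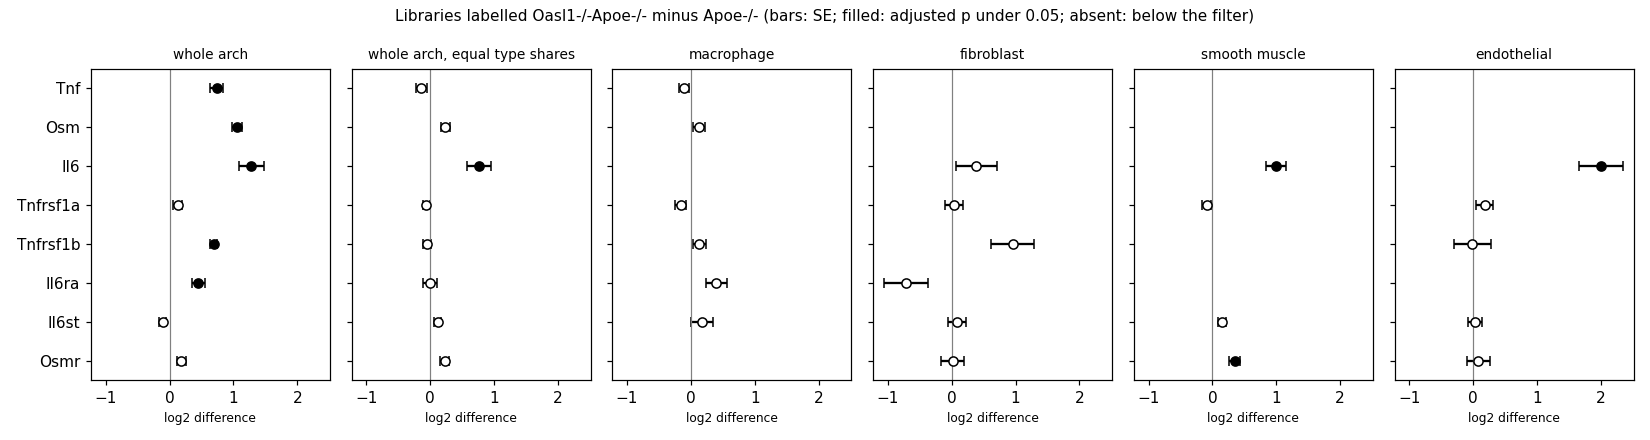
Log2 difference (x axis) of each gene (y axis), libraries labelled Oasl1-/-Apoe-/- minus Apoe-/- libraries, with SE; filled points passed the threshold and genes below the filter have no point. The 5 calls of the whole arch shrink to Il6 at equal type shares. Within types only Il6 in endothelial and smooth muscle cells and Osmr in smooth muscle cells are filled. In both types Il6 met the filter only through the libraries labelled Oasl1-/-Apoe-/-.

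The wider pathways were read from 6 gene lists. Of NF-kB targets, 14 of 19 tested rose in the whole arch and none fell, with a median log2 difference of 0.35 against -0.03 over all genes, of which 41.1% passed in either direction (2014 of 9836 rose). In smooth muscle cells, where 7.64% of all genes passed, 7 of 17 rose, among them Vcam1, an adhesion molecule for leukocytes (1.23 ± 0.08, limma adjusted p 1.29e-07), and Ccl2, a chemokine for monocytes (1.52 ± 0.20, 0.000260). In fibroblasts, against 3.64% of all genes, 5 of 19 rose, Ccl2 by 1.36 ± 0.19 and Cxcl2 by 0.95 ± 0.12 (limma adjusted p 0.00114 and 0.000686). In macrophages, against 16.1% of all genes, 4 of 18 rose and 3 fell: Ccl2 rose by 1.60 ± 0.10 and Ccl5 by 1.88 ± 0.16 (limma adjusted p 6.22e-08 and 8.46e-07), and Tnfaip2 had -0.59 ± 0.12 (0.00277). In endothelial cells, against 3.1% of all genes, 2 of 20 rose, Ccl2 and Ccl5, and 3 fell, Ier3, Cxcl1 and Nfkbia, the inhibitor of NF-kB (-0.28 ± 0.08, limma adjusted p 0.0267).

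Of the TNF superfamily, 9 of 15 genes rose in the whole arch and 2 fell, beside the 41.1% of all genes that passed there. In macrophages, against 16.1% of all genes, 2 of 10 rose and 2 fell, the latter Tnfrsf21 and Tnfsf12. Those that rose were Cd40 (1.21 ± 0.14, limma adjusted p 2.77e-05) and Tnfsf13b, which encodes the B cell factor BAFF (1.18 ± 0.20, 0.000741). In smooth muscle cells Tnfrsf11b, which encodes the decoy receptor osteoprotegerin, rose (0.72 ± 0.09, limma adjusted p 0.000103). Of the genes for TNF shedding and receptor signalling, 9 of 26 rose and 1 fell in the whole arch. In either direction 38.5% passed, close to 41.1% of all genes, but over all genes 2014 rose and 2031 fell. In macrophages 1 of 25 rose, against 16.1% of all genes in either direction. It was Zfp36, whose product destabilises Tnf mRNA (0.43 ± 0.06, limma adjusted p 0.000112). Zfp36 had -0.49 ± 0.08 in endothelial cells (1.54e-05). Timp3, an inhibitor of the protease that releases TNF, had -0.28 ± 0.08 in endothelial cells and -0.47 ± 0.08 in fibroblasts (limma adjusted p 0.0488 and 0.00546).

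Of the other IL-6 family genes, 3 of 7 tested rose in the whole arch and 1 fell, beside 41.1% of all genes, and 2 in all passed without replicate 2 labelled Oasl1-/-Apoe-/-. Lif, a ligand that also uses gp130, rose in fibroblasts (1.27 ± 0.30, limma adjusted p 0.0316). In gp130 signalling 7 of 14 rose and 2 fell in the whole arch, beside 41.1% of all genes, and these 9 became 4 with the replicate number as a block and 5 without replicate 3 labelled Oasl1-/-Apoe-/-. Socs3, the feedback inhibitor of gp130, rose in macrophages (0.74 ± 0.06, limma adjusted p 1.39e-06). Of the STAT3 response genes, 11 of 16 rose and 1 fell in the whole arch (41.1% of all genes passed), 6 of 13 rose in macrophages (16.1%) and 3 of 15 in smooth muscle cells (7.64%), where they were Lcn2 (1.26 ± 0.10), Timp1 (1.32 ± 0.13) and Hp (0.94 ± 0.24; limma adjusted p 0.0259). In fibroblasts Hp, Timp1 and Myc rose, and Cebpd and Fos fell, of 16 tested, against 3.64% of all genes. Several of these genes answer to other signals as well, and no list is a readout of these cytokines alone.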

How the data were processed

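Libraries were made by 3′ single-cell sequencing of pooled aortic arches. Per the labels, Cell Ranger 3.1.0 and Seurat 4.0.3 were used, and the authors deposited one table of natural log values, ln(1 + UMIs per 10000), on mm10. UMIs were recovered from it, with 100% of the values whole within 0.01; the lowest gene number in a cell was 201 and the highest mitochondrial share 9.99%. Per the methods the authors had removed doublets, and they were not called again. It is not clear that libraries are separate pools of mice, so p-values measure the spread between libraries, which may be technical. The members, lists and markers were chosen with earlier results of these data known.

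Cells were gated by marker lists: 2 markers and a score 1.25 times the next type's. Near the limits lay 156 of 10610 smooth muscle cells and 115 of 3137 macrophages, but 113 of 176 dendritic cells and 92 of 144 monocytes. Levels are described for the 9 types with at least 9 cells in every library, and the 6 with at least 20 were tested. limma 3.58.1 (R 4.3.3, trend) was fitted to log2(mean CP10K + 0.05) of 2 against 3 libraries, over genes whose mean level was at least 0.05, which a gene can meet through 1 group alone, with Benjamini-Hochberg adjustment over all of them and a threshold of 0.05. This scale understates changes of low genes. The script was tested on simulated data. Shares were compared by an exact permutation test of the absolute difference over 10 assignments, and repeated at 1000 UMIs per cell, without the shallower 245 cells of Apoe-/- libraries and 311 of the others. Named genes were the members, Oasl1, up to 5 genes of each list with the smallest adjusted p, and the 3 genes nearest each member's pattern. A gene that the rule names is not reported here. Positions are from GENCODE M21 (GRCm38). Alternatives are given in the closing section.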

Additional observations from a re-analysis of the deposited data

How the results depend on the processing

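The count of members past the threshold in the whole arch was 5, and 7 with summed UMIs, the mean of log values and limma-voom, where Tnfrsf1a and Osmr also passed, 6 without Apoe-/- replicate 1 or replicate 3 labelled Oasl1-/-Apoe-/-, and 1 at equal type shares. Within gated types it was 3, and 5 on the mean of log values. It was 1 with graph clusters, where smooth muscle Il6 fell below the filter. It was also 1 over all types when the smooth muscle gate kept only cells without a Dcn or Lum UMI (added after seeing the data). That 1 was Il6 in endothelial cells, and no member passed in the smooth muscle subset. Leaving 1 library out gave 2 to 5, the 5 without Apoe-/- replicate 1. The Il6 calls among the 3 of the main setting met the filter only through the libraries labelled Oasl1-/-Apoe-/-. Osmr in smooth muscle cells also missed the threshold with no filter (limma adjusted p 0.0702) and with clusters (0.26, 0.0765). Among the 6 tested types, the leading type of all 8 members held with clusters and with thinning. The macrophage Tnf share difference of 2.27 percentage points turned to -1.36 when thinned.

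With 1 library left out, counts of list genes within gated types ranged from 4 (without replicate 1 labelled Oasl1-/-Apoe-/-) to 12 (without Apoe-/- replicate 1) for the TNF superfamily, where all libraries gave 7, 2 (without replicate 3 so labelled) to 9 (without Apoe-/- replicate 1) for TNF shedding and receptor signalling, where they gave 4, and 1 (without replicate 3 so labelled, and 2 without replicate 1 or 2) to 5 for the IL-6 family, where they gave 4, and in the whole arch from 2 (without replicate 2 so labelled) to 5 for the IL-6 family, against 4, and 5 (without replicate 3 so labelled) to 8 for gp130 signalling, against 9. The numbers did not pair the libraries (same-number correlations of deviations 0.015 and 0.043). With the replicate block the gp130 count in the whole arch was 4 instead of 9; the members' counts stayed at 5 and 3, and no member's effect differed between types.

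Signs that turned were all of values that missed the threshold under that alternative. At equal shares they were Tnf (-0.14), Tnfrsf1a (-0.059), Tnfrsf1b (-0.052), Il6ra (-0.0025) and Il6st (0.12). In macrophages they were Tnf on log values (0.0034), Osm (-0.13) and Tnfrsf1a (0.020) without Gpnmb, and Il6st with clusters (-0.035). In fibroblasts they were Tnfrsf1a with summed UMIs (-0.059), limma-voom (-0.064), clusters (-0.011) and 1 more marker (-0.023), Osmr with summed UMIs (-0.24), limma-voom (-0.26) and 1 more marker (-0.026), and Il6st with clusters (-0.059). In endothelial cells they were Tnfrsf1b with summed UMIs (0.098), log values (0.0069), the replicate block (0.080), limma-voom (0.13), clusters (0.0070) and 1 more marker (0.033), and Osmr with summed UMIs (-0.020) and limma-voom (-0.019). The cause was not tested. Without 1 library, the ranges were -0.13 to 0.91 for Il6 in fibroblast cells, -0.052 to 0.42 for Tnfrsf1a in endothelial cells, -0.055 to 0.13 for Tnfrsf1a in fibroblast cells, -0.24 to 0.22 for Tnfrsf1b in endothelial cells, -0.088 to 0.14 for Il6st in endothelial cells and -0.12 to 0.11 for Osmr in fibroblast cells.

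Genes under 0.05 CP10K could not be tested at this depth, and 2 against 3 libraries cannot bring an exact permutation p under 0.1.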

Other observations

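Monocytes had too few cells in each library for a test across genes. Their Osm level was 4.17 and 4.56 CP10K in the Apoe-/- libraries, from 34 and 18 cells, and 7.02, 8.27 and 8.25 CP10K in the libraries labelled Oasl1-/-Apoe-/-, from 29, 30 and 33 cells. How many of all genes separated the groups as fully in these cells was not counted, so the levels are given as values only. Of the monocytes, 92 of 144 lay near the limits of the gate. In neutrophils Osm was at 7.55 and 10.4 CP10K against 10.8, 17.9 and 13.2 CP10K, and Tnfrsf1a at 3.70 and 4.15 against 2.40, 2.49 and 1.51 CP10K, from 15 to 21 cells in each library. The Tnfrsf1a values rest on 6 and 5 against 4, 6 and 3 UMIs. Neutrophil depth also differed, with medians of 751 and 742 against 1095.5, 1295 and 1233.5 UMIs per cell, and was not matched. Monocytes and neutrophils were picked for mention after their values were seen.

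Tnf in dendritic cells was at 2.03 and 0.464 CP10K against 0.644, 0.669 and 0.0970 CP10K, so that 1 Apoe-/- library set the mean of its group. Cells that the gate left without a type, 5.02% of all, held 14.8% ± 3.69 (SD, n = 5) of the Osm UMIs and 11.6% ± 4.23 of the Tnf UMIs.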
